A study of Caenorhabditis elegans with 72 samples.

Results

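In *C. elegans*, the cytokine ILC-17.1 is an IL-17 ligand and NFKI-1 is an IκB-like protein that acts inside the cell in the same signaling pathway. The expression profile of *nfki-1* mutants was set against that of *ilc-17.1* mutants, in which the ligand rather than the intracellular protein is affected. RNA-seq of whole animals at the late L4 stage was used, and both mutants also carried the *npr-1* mutation, per the study's methods. All genes for which the deposited comparison of these genotypes gives at least 1 FPKM in either one were described. FPKM is a read count adjusted for how long the transcript is and how deeply the libraries were sequenced. 14170 of the 46624 listed genes (30.4%) met this rule. The lowest of them reached 1.00059 FPKM and the highest gene left out 0.999805 FPKM.

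The series holds 72 samples of 4 genotypes, 18 each: *nfki-1*, *ilc-17.1* and *malt-1* mutants, each combined with *npr-1*, and *npr-1* animals as their control. The labels give 1 strain background, AX204, for all of them, and no allele of *nfki-1* or *ilc-17.1*. The samples outnumber the biological replicates given in the study's methods, and the labels do not say which samples share a culture. Those methods give fewer biological replicates for *ilc-17.1* mutants than for each of the other genotypes. The 18 samples of *ilc-17.1* mutants carry 15 library numbers, 3 of which occur again with a suffix. Poly(A) RNA was taken from the progeny of timed egg lays grown on *E. coli* OP50. The authors' deposited table holds 1 FPKM value per genotype in each comparison of a pair of genotypes, not one per sample. There is therefore no SD, the depth is unknown, and no difference given here has a replicate check or a test. A ratio is the *nfki-1* value over the *ilc-17.1* value without a pseudocount, so that a positive log2 ratio means a higher value in *nfki-1* mutants.

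IL-17 signaling is best known from mammalian immunity. In the worm, ILC-17.1 binds the receptors ILCR-1 and ILCR-2, and the signal passes through the adaptor ACTL-1, the IRAK-like kinase PIK-1, the paracaspase MALT-1 and NFKI-1. The pathway acts in neurons, where it raises the responsiveness of the circuit by which *npr-1* animals escape high oxygen. Whole animals also contain intestine, muscle, epidermis and a germline, which makes sperm during the L4 stage. Of the fixed marker lists, 8 of 8 neuronal, 7 of 7 body wall muscle, 8 of 8 germline and 6 of 9 intestinal markers were present at 1 FPKM or more. The pharyngeal list was present for 2 of 8 markers and the hypodermal list for 4 of 8. The other pharyngeal and hypodermal markers, which include the pharyngeal myosins *myo-1* and *myo-2* and the cuticle collagen *dpy-7*, are listed at 0 in both mutants. In all, 3568 of 19701 protein-coding genes are listed at 0 in both, and 3264 of these also in *npr-1* animals and *malt-1* mutants. The study's methods state that genes with oscillating expression in development were left out. Whether that step produced zeros here was not tested, so a 0 is not read as absent expression. Nothing can be said here of the 3568 genes, and lists with many zeros are described by the genes that remain.

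The profiles of both mutants were close for most genes. Among the 13500 genes with a value above 0 in both mutants, the median log2 ratio was 0.0058, with quartiles of -0.14 and 0.18, and 64.8% lay within 0.25 log2 of equality. A difference of at least 2-fold was found for 226 genes higher in *nfki-1* mutants (1.67%) and 287 lower (2.13%). At a threshold of 0.25 log2, 2695 genes were higher (20%) and 2055 lower (15.2%). Among protein-coding genes alone, 18.7% were higher and 12.7% lower at this threshold. These shares are the background against which the gene groups below are read.

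Genes that do not code for proteins made up much of the large ratios. Protein-coding genes were 12026 of the 14170, and 109 of them were at least 2-fold higher in *nfki-1* mutants (0.908%) and 81 lower (0.675%). For genes annotated as ncRNA the shares were 11.5% and 22.5%, and for small nucleolar RNAs 13.8% and 22.8%. A ratio was available for 601 of 1148 ncRNA genes and 123 of 155 small nucleolar RNA genes. The libraries were made from poly(A) RNA, and few fragments weigh heavily in short transcripts. These shares are therefore not read as differences in expression. A further 373 genes were listed at 0 in *nfki-1* mutants and 297 in *ilc-17.1* mutants, 26 of them protein-coding, and have no ratio. Of these 26, for example, *F38C2.1* was at 14.1 FPKM and *F42A9.11* at 6.78 FPKM in *nfki-1* mutants while listed at 0 in *ilc-17.1* mutants. The short genes *nspa-2* and *C32E8.12* were listed at 0 in *nfki-1* mutants, against 12.8 and 5.95 FPKM in *ilc-17.1* mutants.

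Among protein-coding genes the spread of the ratios was widest at low levels. With a mean FPKM up to 2, 4.52% were at least 2-fold higher and 4.22% at least 2-fold lower in *nfki-1* mutants. Between 10 and 100 FPKM the shares were 0.369% and 0.162%. Between 100 and 1000 FPKM a 2-fold difference was found for 1 gene in each direction, *C14C6.5* (higher) and *F59C6.16* (lower), and above 1000 FPKM for none of 186. The plot of ratio against level shows this funnel, with the sperm genes as a band above it.

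**Figure D1:**
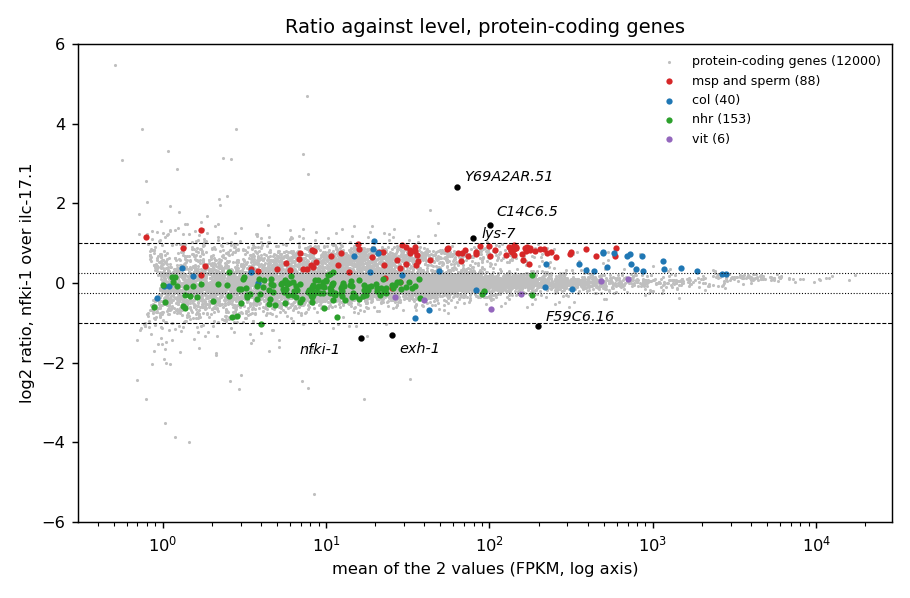
Log2 ratio of *nfki-1* over *ilc-17.1* mutants for each of 12000 protein-coding genes (grey points) against the mean of both FPKM values on a log axis, with 4 gene lists in color and 6 genes named. Dashed lines mark 2-fold and dotted lines 0.25 log2; most of the 88 *msp* and sperm genes lie between the upper dotted and dashed lines, and *nfki-1* itself lies at -1.37.

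Within the IL-17 pathway, the mutated genes check the labels. *nfki-1* (X chromosome, 15355238 to 15363861, a region listed for 2 genes) was at 9.11 FPKM in *nfki-1* mutants, against 23.6 FPKM in *ilc-17.1* mutants, a log2 ratio of -1.37. It was at 18 FPKM in *malt-1* mutants and 24.1 FPKM in *npr-1* animals, so that the low value stands with the genotype label. *ilc-17.1* was below the rule in both, with 0.227 FPKM in *nfki-1* mutants and 0.158 FPKM in *ilc-17.1* mutants, and its listed region, 12705624 to 12813947 on the X chromosome, is shared by 23 genes. Its level therefore gives no check of the *ilc-17.1* label. *npr-1*, the receptor gene mutated in all genotypes, was also below the rule, at 0.682 FPKM in *nfki-1* and 0.589 FPKM in *ilc-17.1* mutants.

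Of the other components, the paracaspase gene *malt-1* was the only one past 0.25 log2, at 6.48 FPKM in *nfki-1* mutants, against 8.33 FPKM in *ilc-17.1* mutants and 6.54 FPKM in *npr-1* animals. The kinase gene *pik-1* had a log2 ratio of -0.15, the receptor genes *ilcr-1* and *ilcr-2* -0.10 and -0.06, and the adaptor gene *actl-1* 0.02. The receptors and the adaptor were thus close in both mutants. The p38 MAP kinase cascade is the immune pathway that starts from the SARM1 ortholog TIR-1. Its list also holds other transcription factor genes, such as *zip-2*, *elt-2* and *hlh-30*. The list had 0 of 12 genes past 0.25 log2 in the higher direction and 0 in the lower. Its median was -0.12, and the genes farthest from equality were *nsy-1* (-0.23) and the MAP kinase gene *pmk-1*, at 24.6 FPKM in *nfki-1* mutants, against 28.9 FPKM in *ilc-17.1* mutants.

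Of the 51 pathway lists, that of sperm genes had the largest share of members past 0.25 log2 in the higher direction. Of 88 genes in the *msp* and sperm list, 84 were at least 0.25 log2 higher in *nfki-1* mutants and 0 lower, and their median log2 ratio was 0.76. Their FPKM summed to 10693 in *nfki-1* mutants, against 6298 in *ilc-17.1* mutants. All 8 sperm markers were among them, from *spe-9*, which sperm need for fertilization, at 0.35, to *msp-142* at 0.90. In bulk RNA, fewer cells of a type and less RNA per cell cannot be told apart.

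*msp-3* encodes a major sperm protein, of the family that forms the motile cytoskeleton of crawling sperm. It was at 139 FPKM in *nfki-1* mutants, against 78.5 FPKM in *ilc-17.1* mutants. The *msp* genes are near-identical copies that can share reads, so that single members are uncertain. Unrelated sperm genes gave similar ratios. The sperm phosphatase genes *gsp-3* and *gsp-4* were at 124 and 90.8 FPKM in *nfki-1* mutants, against 76.7 and 57.1 FPKM in *ilc-17.1* mutants. *spe-11*, whose product sperm bring into the egg, was at 81 FPKM in *nfki-1* mutants, against 48 FPKM in *ilc-17.1* mutants. *nspd-1*, of a nematode-specific peptide family, was at 723 FPKM in *nfki-1* mutants, against 449 FPKM in *ilc-17.1* mutants.

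The sperm list lay above the control in *nfki-1* mutants and below it in *ilc-17.1* mutants by its median. Over *npr-1*, their median log2 ratio was 0.54 for *nfki-1*, -0.15 for *ilc-17.1* and 0.21 for *malt-1* mutants, in comparisons that share the *npr-1* samples. *msp-3* was at 116 FPKM in *malt-1* mutants and 98.9 FPKM in *npr-1* animals, between its values in the other mutants. Here and below, *npr-1* values are those of the comparison with *nfki-1* mutants and *malt-1* values those of the comparison with *npr-1*, and values were scaled within each comparison.

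Markers of other germline cells had medians nearer to 0 than the sperm genes. Of 8 markers of the germline as a whole, 5 were past 0.25 log2 and all of these were higher in *nfki-1* mutants, with a median of 0.27. *cgh-1*, a germline RNA helicase, was at 329 FPKM in *nfki-1* mutants, against 261 FPKM in *ilc-17.1* mutants, and the P granule gene *pgl-1* at 146 against 118 FPKM. Unlike *msp-3*, both had their highest value in *npr-1* animals, 346 FPKM for *cgh-1* and 195 FPKM for *pgl-1*. Genes of the meiotic chromosome axis had a median of 0.12, with 4 of 27 higher and 0 lower. Oocyte markers had a median of -0.07, and the 3 of 8 past the threshold were lower: *oma-2*, a regulator of oocyte maturation, and the eggshell genes *cpg-1* and *cbd-1*, at -0.37, -0.34 and -0.26. The summed FPKM of the germline markers was 1055 in *nfki-1* mutants, against 868 in *ilc-17.1* mutants, and that of the oocyte markers 406 against 448. How far the amount or stage of germline tissue takes part in the sperm difference was not tested.

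The Argonaute genes *alg-3* and *alg-4*, which act in spermatogenesis, were at 44.1 and 50.6 FPKM in *nfki-1* mutants, against 29.3 and 37.1 FPKM in *ilc-17.1* mutants. The other Argonaute genes past 0.25 log2 included *nrde-3* at -0.46 and the microRNA Argonaute *alg-1* at -0.29. In all, 5 of 20 Argonaute genes were higher and 3 lower.

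**Figure D2:**
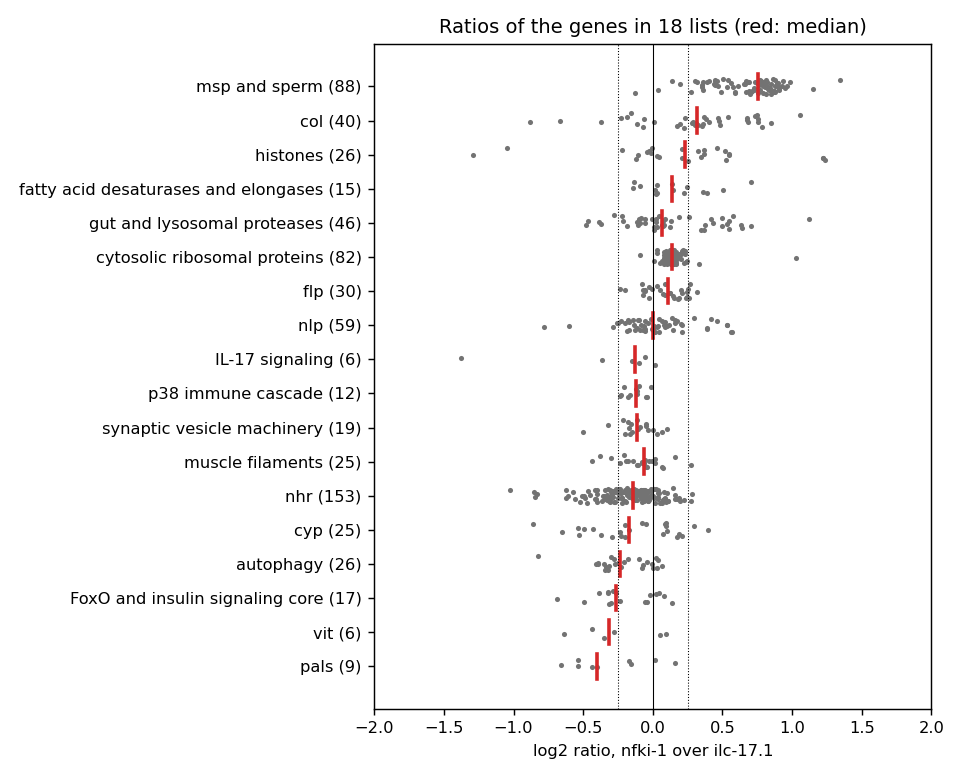
Log2 ratio of *nfki-1* over *ilc-17.1* mutants for the genes of 18 lists, 1 point per gene, with the median of each list in red and the number of genes in brackets. Dotted lines mark 0.25 log2; the *msp* and sperm list has a median of 0.76, and the lists from *nhr* down to *pals* have medians between -0.14 and -0.40.

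Most of the measured cuticle collagen genes were also higher in *nfki-1* mutants. Of 156 *col* genes, 82 are listed at 0 in both mutants and 40 met the rule, 26 of these at least 0.25 log2 higher and 3 lower, with a median of 0.32. *col-152* was at 26.4 FPKM in *nfki-1* mutants, against 12.7 FPKM in *ilc-17.1* mutants, and *col-120* at 624 against 362 FPKM. The adult collagen gene *col-19* was at 413 FPKM in *nfki-1* mutants, against 296 FPKM in *ilc-17.1* mutants. *col-137* and *col-143* lay in the other direction, at 24.7 and 32.8 FPKM in *nfki-1* mutants, against 45.6 and 52 FPKM in *ilc-17.1* mutants. Some *col* genes are close copies that can share reads. The 4 measured markers of the hypodermis, the tissue that makes the cuticle, had a median of -0.34, with 1 higher (*elt-1* at 0.26) and 2 lower (*bli-1* at -0.46 and *elt-3* at -0.56). Their summed FPKM was 282 in *nfki-1* mutants, against 374 in *ilc-17.1* mutants, and their part in the *col* difference was not tested. Over *npr-1*, the median of the 40 genes was 0.17 for *nfki-1*, -0.17 for *ilc-17.1* and -0.37 for *malt-1* mutants.

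Histone genes, whose near-identical copies can share reads and whose main transcripts lack a poly(A) tail, had 13 of 26 higher and 2 lower, with a median of 0.23.

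Of 202 other genes of the cuticle and molting, 128 are listed at 0 in both mutants. The 31 that met the rule were split: 8 were higher and 8 lower. *bli-1*, which encodes a collagen of the adult cuticle, was at 225 FPKM in *nfki-1* mutants, against 311 FPKM in *ilc-17.1* mutants. In the same list, the ground-like gene *grl-27* was at 37.4 FPKM in *nfki-1* mutants, against 14.5 FPKM in *ilc-17.1* mutants, and the astacin protease gene *nas-22* at 11.5 against 5.5 FPKM. Of genes that time the larval stages, 9 of 18 are listed at 0, *lin-29* among them, and 3 of the 7 with values were lower. These were the transcription factor genes *hbl-1* (-0.51) and *daf-12* (-0.50), and *lin-66* (-0.32).

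Nuclear hormone receptors, transcription factors of a family much expanded in nematodes, were the pathway list with the most measured genes and the most lower genes. Of 153, 52 were at least 0.25 log2 lower (34%, against 15.2% over all genes). The 2 higher ones were *nhr-62* and *nhr-121*, and the median was -0.14. By share, smaller lists had more lower genes, such as *vit* (66.7%), *pals* (55.6%) and the insulin and FoxO list (52.9%). *nhr-19* was at 8.31 FPKM in *nfki-1* mutants, against 14.9 FPKM in *ilc-17.1* mutants, and *nhr-209* at 2.65 against 5.38 FPKM. Over *npr-1*, the median of the group was 0.00 for *nfki-1*, 0.16 for *ilc-17.1* and 0.00 for *malt-1* mutants. The median of the group was thus away from 0 in *ilc-17.1* mutants alone among these.

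Insulin signaling passes from the receptor DAF-2 through AKT kinases to the FoxO factor DAF-16. The list drawn up around this core also holds other genes, such as *let-363*, *aak-2*, *sir-2.1* and *cbp-1*. Of its 17 genes, 9 were lower in *nfki-1* mutants and 0 higher, with a median of -0.26. *daf-2* was at 14.5 FPKM in *nfki-1* mutants, against 20.5 FPKM in *ilc-17.1* mutants, 15.1 FPKM in *malt-1* mutants and 13.6 FPKM in *npr-1* animals. *akt-2* was at 22.6 FPKM in *nfki-1* mutants, against 36.3 FPKM in *ilc-17.1* mutants, and *cbp-1*, a CBP/p300 acetyltransferase gene, at 28.4 against 37.1 FPKM. *daf-16* itself had nearly equal values, 69 FPKM in *nfki-1* and 69.9 FPKM in *ilc-17.1* mutants. The group is one of long transcripts, with a median of 2765 nt, and long transcripts were lower in general. After the median of all protein-coding genes of similar length had been subtracted, the median of the list was -0.09 and 4 genes were past the threshold.

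The autophagy list, which its pattern extends to *atgl-1* and *atgp-1*, had 12 of 26 genes lower and 0 higher, with a median of -0.24. *epg-5*, which acts in the fusion of autophagosomes with lysosomes, was at 4.19 FPKM in *nfki-1* mutants, against 7.4 FPKM in *ilc-17.1* mutants. The autophagy genes *epg-7*, *epg-4* and *epg-8* had log2 ratios of -0.41, -0.39 and -0.32. With the length correction, 11 genes were past the threshold, at a median of -0.22. Over *npr-1*, the list had a median of 0.11 for *nfki-1*, 0.34 for *ilc-17.1* and 0.15 for *malt-1* mutants.

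Transcript length went with the ratio across all protein-coding genes. The median log2 ratio was 0.09 for genes whose longest annotated transcript had up to 500 nt, 0.00043 for those over 1500 and up to 2000 nt, and -0.24 for the 169 genes over 6000 nt. Of those longest genes, 79 were at least 0.25 log2 lower in *nfki-1* mutants and 1 higher. The titin-like gene *ttn-1*, the twitchin gene *unc-22* and *unc-13*, which primes synaptic vesicles, had log2 ratios of -0.38, -0.44 and -0.50, and -0.14, -0.19 and -0.26 once the median of their length class was subtracted. Over *npr-1*, the genes over 6000 nt had a median of 0.23 for *nfki-1*, 0.51 for *ilc-17.1* and 0.17 for *malt-1* mutants. For genes up to 500 nt the medians over *npr-1* were -0.0011, -0.09 and 0.10 in the same order of mutants.

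Genes on the X chromosome were lower than those on the autosomes. Of 1571 X-linked protein-coding genes, 11.1% were at least 0.25 log2 higher in *nfki-1* mutants and 21% lower, with a median of -0.072. Autosomal genes had 19.8% higher and 11.5% lower, with a median of 0.017. Of the nuclear chromosomes, IV had the highest share of higher genes, 24.4%, and V the share of lower genes nearest to X, 17.5%. The difference was present within length classes: between 1500 and 2000 nt the median was -0.072 on X and 0.01 on the autosomes, and between 3000 and 4000 nt -0.19 and -0.051. None of the sperm list lies on X. Without that list the autosomal median was 0.015, but its 88 genes are too few among 10442 to move a median much. How far sperm genes take part in the difference between X and the autosomes was not tested. Over *npr-1*, X-linked genes had a median of 0.037 for *nfki-1*, 0.10 for *ilc-17.1* and 0.0024 for *malt-1* mutants. *nfki-1* and *ilc-17.1* are themselves X-linked.

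**Figure D3:**
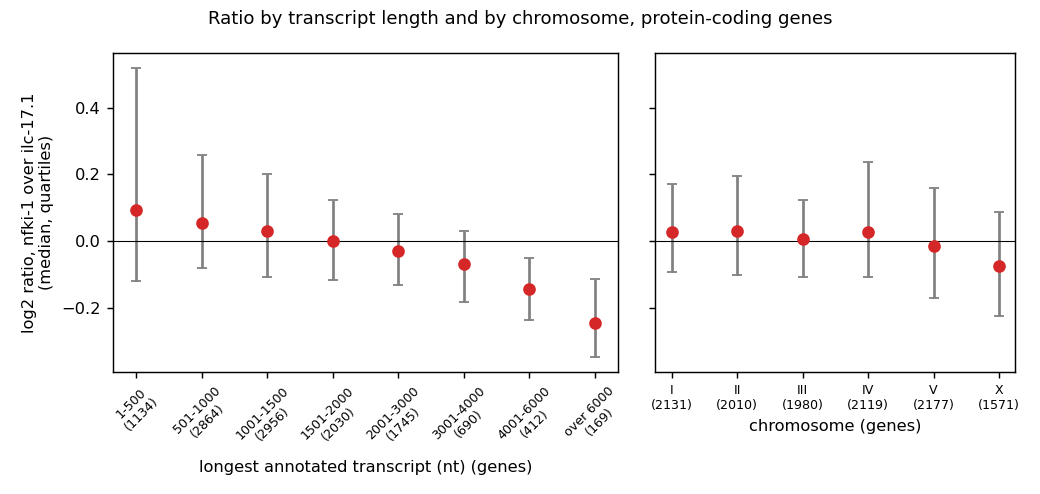
Median log2 ratio of *nfki-1* over *ilc-17.1* mutants (points) with quartiles (bars) for protein-coding genes, by the length of the longest annotated transcript (left) and by chromosome (right), with the number of genes in brackets. The median goes down with length to -0.24 over 6000 nt and is lowest on X, at -0.072.

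Yolk protein genes differed within their family. Vitellogenins are made in the intestine for the oocytes and come on at the end of larval life. *vit-1* was at 80.4 FPKM in *nfki-1* mutants, against 125 FPKM in *ilc-17.1* mutants, and *vit-3*, *vit-4* and *vit-5* were lower too, with log2 ratios of -0.44, -0.35 and -0.28. The most abundant ones, *vit-2* and *vit-6*, had nearly equal values, 493 and 732 FPKM in *nfki-1* mutants, against 476 and 684 FPKM in *ilc-17.1* mutants. Members of the family can share reads. In *npr-1* animals all were far below both mutants, with *vit-2* at 168 and *vit-6* at 219 FPKM. The median over *npr-1* was 1.75 for *nfki-1*, 2.11 for *ilc-17.1* and 0.72 for *malt-1* mutants. These transcripts are long as well, and with the length correction 2 of 6 were past the threshold in place of 4.

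**Figure D4:**
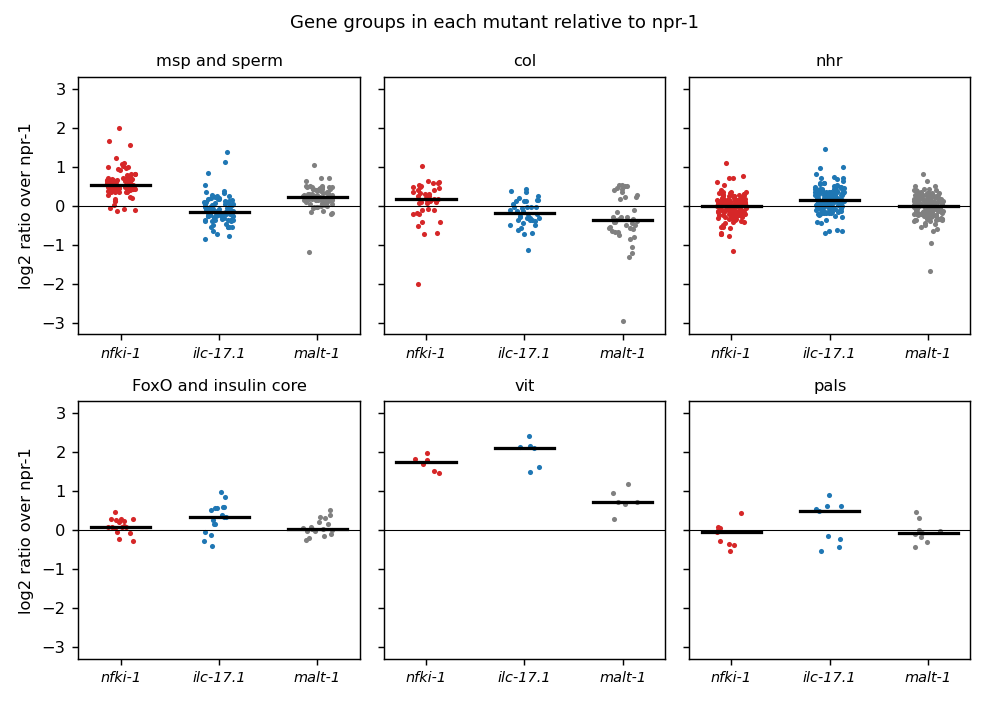
Log2 ratio over *npr-1* in *nfki-1*, *ilc-17.1* and *malt-1* mutants for the genes of 6 lists, 1 point per gene, with the median as a bar; each mutant is scaled within its own comparison and all share the *npr-1* samples. Sperm genes have medians of 0.54, -0.15 and 0.21 from left to right, and *vit* genes 1.75, 2.11 and 0.72.

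Immune genes differed gene by gene. *lys-7* (chromosome V from 3481421 to 3482600), a lysozyme gene of the intestinal defense, had one of the largest differences among well-expressed genes, with 109 FPKM in *nfki-1* mutants, against 49.3 FPKM in *ilc-17.1* mutants. It was at 92.5 FPKM in *malt-1* mutants and 87.8 FPKM in *npr-1* animals, so that the low value is that of *ilc-17.1* mutants. The epidermal antimicrobial peptide gene *nlp-31* lay in the other direction, at 242 FPKM in *nfki-1* mutants, against 367 FPKM in *ilc-17.1* mutants. Among lysozymes, saposins and antimicrobial peptides together, 8 of the 44 with a ratio were higher and 8 lower. Of 46 in all, the others were *fipr-16* and *fipr-19*, at 2.55 and 1.73 FPKM in *nfki-1* mutants and listed at 0 in *ilc-17.1* mutants. C-type lectin genes were split, with 19 of 78 higher and 19 lower (24.4% in each direction, against 20% higher and 15.2% lower over all genes). Of 9 *pals* genes, of a family tied to the response to intracellular pathogens, 5 were lower and 0 higher, with a median of -0.40. Those 5 were all low, between 0.878 FPKM (*pals-39*) and 2.16 FPKM (*pals-34*) in *nfki-1* mutants, against 1.38 and 2.86 FPKM in *ilc-17.1* mutants. The regulators *pals-22* and *pals-25* were closer, at -0.16 and -0.17.

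Of the detoxification genes, cytochrome P450 enzymes had 8 of 25 lower in *nfki-1* mutants and 2 higher. Glutathione transferases had 4 of 28 higher and 6 lower, and UDP-glycosyltransferases 5 of 23 in each direction. The metallothionein gene *mtl-2* was at 748 FPKM in *nfki-1* mutants, against 589 FPKM in *ilc-17.1* mutants, and the catalase gene *ctl-2* at 100.2 against 121 FPKM. The small heat shock gene *hsp-12.6* was at 9.15 FPKM in *nfki-1* mutants, against 16.4 FPKM in *ilc-17.1* mutants, and was the only one lower of 58 heat shock and chaperone genes with a ratio, of which 3 were higher. A further member that the pattern takes in, the noncoding *F44E5.14*, was listed at 0 in *nfki-1* mutants, against 15.1 FPKM in *ilc-17.1* mutants. Of 13 genes of the oxygen and sulfide response, 2 were higher and 1 was lower, *ethe-1*, at -0.39. The higher ones were *sqrd-1*, a sulfide oxidizing enzyme gene, at 0.57 and *gst-19* at 1.03. *gst-19* was low, at 2.41 FPKM in *nfki-1* mutants, against 1.19 FPKM in *ilc-17.1* mutants.

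Neuronal genes were close in both mutants. The 8 neuronal markers had a median of -0.04 and none past 0.25 log2 in either direction. Of FMRFamide-like peptide genes, 4 of 30 were higher in *nfki-1* mutants (13.3%, against 20% over all genes) and 0 lower. Their median was 0.11, which the length correction reduced to 0.02. *flp-8* was at 22 FPKM in *nfki-1* mutants, against 17.6 FPKM in *ilc-17.1* mutants, and both were far below the 59.3 FPKM of *npr-1* animals. Other neuropeptide genes (*nlp*) had 9 of 59 higher (15.3%) and 5 lower (8.47%). Of these, *nlp-46* was at 15.8 FPKM in *nfki-1* mutants, against 10.6 FPKM in *ilc-17.1* mutants, and *nlp-51* at 14.8 against 10.2 FPKM. The enzymes and chaperones that make neuropeptides, such as the convertase EGL-3 and the chaperone SBT-1, had 1 of 13 genes past the threshold, *rund-1* at 0.34.

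Insulin-like peptide genes held a few large ratios at low levels. *ins-25* was at 4.68 FPKM in *nfki-1* mutants, against 0.538 FPKM in *ilc-17.1* mutants, *ins-20* at 1.35 against 0.229 FPKM and *ins-16* at 2.25 against 0.911 FPKM. In all, 7 of 23 were higher and 4 lower. Neuropeptide receptor genes had 11 of 66 higher and 12 lower, with *npr-13* at 2.63 FPKM in *nfki-1* mutants, against 1.1 FPKM in *ilc-17.1* mutants, and *gnrr-2* at 7.82 against 12 FPKM. Of the synaptic vesicle genes, 2 of 19 were lower, *unc-13* and the kinesin gene *unc-104*. The vesicular monoamine transporter gene *cat-1* had a log2 ratio of 0.38 and the acetylcholinesterase gene *ace-2* -0.36.

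Most metabolic genes lay within 0.25 log2. Glycolytic genes had 3 of 18 higher (*gpd-1*, *gpd-4* and *pfk-1.2*) and 0 lower. Genes of the citric acid cycle had 1 of 24 in each direction, and the 70 mitochondrial ribosomal protein genes had 0 past the threshold. Of nuclear respiratory chain genes, 4 of 62 were higher and 0 lower, with the cytochrome c gene *cyc-2.2* at 0.56. Cytosolic ribosomal protein genes sat slightly higher as a block, with a median of 0.14 and 81 of 82 above 0, and 0.07 with the length correction. Fatty acid elongases were higher for *elo-8*, *elo-7* and *elo-5*, which makes branched fatty acids, with 44.1, 26.7 and 261 FPKM in *nfki-1* mutants, against 27, 18.9 and 199 FPKM in *ilc-17.1* mutants. Among genes of fatty acid activation and breakdown, 12 of 87 were higher, led by the acyl-CoA dehydrogenase genes *acdh-5* (0.86) and *acdh-4* (0.70), and 14 lower, led by the acyl-CoA synthetase gene *acs-7* (-0.72).

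Muscle filament genes had 3 of 25 lower, *unc-22*, *ttn-1* and the myosin heavy chain gene *unc-54*, and 1 higher, *act-2*. The lower ones have very long transcripts, and with the length correction 0 were past the threshold. *unc-54* was at 798 FPKM in *nfki-1* mutants, against 982 FPKM in *ilc-17.1* mutants. Of markers of the vulva, uterus and spermatheca, the spermathecal gene *sth-1* was at 107 FPKM in *nfki-1* mutants, against 69 FPKM in *ilc-17.1* mutants, and the FGF receptor gene *egl-15* and the LIM homeobox gene *lin-11* were lower, at -0.51 and -0.39.

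Among the largest single ratios of protein-coding genes with at least 10 FPKM in the higher mutant, most were of genes known by a sequence name only. The genes named here were chosen after their values were seen. *C12D8.21* (chromosome V from 10240573 to 10241188) was at 14.6 FPKM in *nfki-1* mutants, against 0.569 FPKM in *ilc-17.1* mutants and 0.435 FPKM in *npr-1* animals. *C14C6.5* (chromosome V from 536628 to 537418) was at 147 FPKM in *nfki-1* mutants, against 53.5 FPKM in *ilc-17.1* mutants, with 126 FPKM in *malt-1* mutants and 77.5 FPKM in *npr-1* animals. *Y69A2AR.51*, annotated with a transcript of 75 nt, was at 107 FPKM in *nfki-1* mutants, against 20.05 FPKM in *ilc-17.1* mutants. FPKM divide by length, so that few fragments weigh heavily in a transcript this short. The transcript of *C12D8.21* is short as well, at 249 nt. *Y44A6D.1* was at 13 FPKM in *nfki-1* mutants, against 1.37 FPKM in *ilc-17.1* mutants.

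In the other direction, *W09C2.7* (chromosome IV from 9621994 to 9622372) was at 0.416 FPKM in *nfki-1* mutants, against 16.5 FPKM in *ilc-17.1* mutants. It was at 0.757 FPKM in *malt-1* mutants and 18.2 FPKM in *npr-1* animals, so that *nfki-1* and *malt-1* mutants lay far below the other genotypes. The listed region of *W09C2.7* is short, so that few fragments weigh heavily here too. *F59C6.18* was at 2.12 FPKM in *nfki-1* mutants, against 13.3 FPKM in *ilc-17.1* mutants, and *exh-1* at 14.6 against 36 FPKM. These genes were far higher in *npr-1* animals, at 152 FPKM for *F59C6.18* and 141 FPKM for *exh-1*, and were low in *malt-1* mutants, at 2.01 and 14.9 FPKM. For both, *nfki-1* and *malt-1* mutants were lowest and close together, *ilc-17.1* mutants came next and *npr-1* animals were highest. *col-137* and the TRPV channel gene *ocr-1* had that order as well, except that *malt-1* mutants were lowest: *ocr-1* was at 40.3 FPKM in *nfki-1* mutants, against 64.6 FPKM in *ilc-17.1* mutants, 13.2 FPKM in *malt-1* mutants and 90.7 FPKM in *npr-1* animals.

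Differences in FPKM, as opposed to ratios, were led by abundant genes. The largest in the direction of *nfki-1* mutants were ribosomal protein genes such as *rpl-41.2*, at 18579 FPKM in *nfki-1* mutants, against 16182 FPKM in *ilc-17.1* mutants, a log2 ratio of 0.20. In the direction of *ilc-17.1* mutants, *act-4*, an actin gene, was at 2645 FPKM in *nfki-1* mutants, against 2859.9 FPKM in *ilc-17.1* mutants, and *T28F4.5* at 1268 against 1639 FPKM. Of the 10 genes with the largest difference in that direction, 3 were protein-coding.

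The remaining pathway lists are given by their counts past 0.25 log2. Protein turnover and synthesis genes had few such members, with 2 higher and 0 lower of 73 translation factor and tRNA synthetase genes, 1 higher and 0 lower of 33 proteasome genes and 0 higher and 0 lower of 20 vacuolar ATPase genes. The list of gut and lysosomal proteases, whose pattern also takes in neprilysin genes (*nep*), had 16 higher and 5 lower of 46 genes. Of its 18 *nep* genes, 12 were higher and 0 lower, so that most of the higher genes were neprilysins. The neprilysin gene *nep-4* was at 5.5 FPKM in *nfki-1* mutants, against 2.53 FPKM in *ilc-17.1* mutants. Globin and guanylate cyclase genes, which include oxygen sensors, had 7 higher and 1 lower of 35 genes. The share of higher ones, 20%, equals that over all genes. There were 6 higher and 7 lower of 34 cilia genes, 4 higher and 4 lower of 29 yolk and oocyte maturation genes, 8 higher and 5 lower of 34 transthyretin-like genes and 3 higher and 0 lower of 24 one-carbon genes. Genes of the F-box, MATH and BTB families had 22 higher and 37 lower of 133 genes, the *dod* and *irg* list 3 higher and 5 lower of 19 genes, and the chemoreceptor families, whose pattern also takes in serpins (*srp*), 12 higher and 16 lower of 49 genes.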

How the data were processed

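Poly(A) RNA of whole late L4 animals was sequenced by the authors from stranded libraries as single-end reads. Per the submitters' processing notes, Trim Galore 0.4.3, TopHat2 2.1.0, Cufflinks 2.2.1 and Cuffdiff were used. The genome build is not given in the sources used here. The authors deposited FPKM values, 1 per genotype and comparison, scaled within each comparison. Their columns of fold changes, test statistics, p-values and q-values hold the authors' own comparisons and were not used. Columns of single samples left unused numbered 0.

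Rows comparing the *ilc-17.1* and *nfki-1* genotypes (named ilk17 and nfki1 there) were taken, and ratios computed from the values with Python 3.11.15 and pandas 2.3.3. No test was run. Counts past 2-fold and 0.25 log2 and list medians are descriptions. The counting was tested on simulated data with planted differences and little noise, which checks its arithmetic and not the precision of the values. Symbols, gene types and transcript lengths came from the WBcel235 annotation, release 115, which held 14061 of the 14170 genes. Coordinates are those of the table, with starts written 1-based; of loci with 1 gene, 70.3% started where that annotation does. For the other loci the table gives a region shared by several genes.

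The 61 gene lists, the comparison described and the rule for named genes were chosen with earlier results of these data known. The rule names the IL-17 genes, the 12 largest ratios in each direction with at least 10 FPKM, up to 3 genes per list and direction past 0.25 log2, every gene of a list of 12 or fewer, genes at 0 in 1 genotype with at least 5 FPKM in the other, and the 10 largest differences in each direction. By that rule, 6 of the 24 largest ratios were protein-coding, and 5 of the 190 genes at 0 in 1 genotype, so that protein-coding genes were named in their place. Alternatives were other pseudocounts and FPKM minimums, centring, ratios through *npr-1*, gene types, loci and transcript length.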

Additional observations from a re-analysis of the deposited data

How the results depend on the processing

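The values are 1 per genotype, so their precision is unknown and leaving out a replicate was not possible. No paired analysis was possible because the table has no values per sample. The counts of genes past a fold depended on which genes entered. At least 2-fold higher in *nfki-1* mutants were 410 genes with 1 FPKM added to both values and 509 with 0.1 FPKM added, which bring in genes listed at 0, 123 with at least 5 FPKM in either mutant, 147 with at least 1 FPKM in both, 559 with at least 0.1 FPKM in either, 109 among protein-coding genes and 124 where the locus holds 1 gene, in place of 226. The counts of genes at least 2-fold lower under the same settings were 527, 639, 141, 175, 752, 81 and 129, in place of 287. At 0.25 log2, the count of lower genes was 1197 with at least 5 FPKM in either mutant, 3326 with at least 0.1 FPKM, 1195 where the locus holds 1 gene and 1198 among autosomal protein-coding genes, in place of 2055. The other alternatives, among them centring on a median of 0.011, ratios taken through *npr-1* and the length correction, kept the 4 counts within 1.5 times. The cause of the differences between settings was not tested. The length correction and the autosomal count were chosen after seeing the data. Medians near 0 changed sign under some settings: those of *nlp*, *ins*, neuropeptide processing, antimicrobial, F-box, *ugt*, *gst*, heat shock, citric acid cycle, respiratory chain, *ttr* and globin genes. So did *actl-1*, *daf-16* and a few other genes near 0. No list median or named gene past 0.25 log2 had the opposite sign under any alternative run. Of 60 list medians, 1 moved by 0.25 log2 or more, that of *pals* with at least 5 FPKM in either mutant, to -0.07. Adding 1 FPKM moved 72 of 468 named genes by that much.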

Other observations

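Further families were looked up after their values had been seen, and are given as values. Some are part of a fixed list and were counted there as well: *nep* with the proteases, *fbxa* with the F-box, MATH and BTB families and *irg* with *dod*. Several families had most members higher in *nfki-1* mutants. The *msrp*, *nsph* and *spch* genes had 15 of 16 past 0.25 log2 in that direction, with a median of 0.79, and *spch-1*, a sperm chromatin protein gene, was at 402 FPKM in *nfki-1* mutants, against 244 FPKM in *ilc-17.1* mutants. Tau tubulin kinase genes had 7 of 8 higher (median 0.66), with *ttbk-8.2* at 120.1 FPKM in *nfki-1* mutants, against 72.4 FPKM in *ilc-17.1* mutants. Among transporters, 5 of 7 ABC transporter genes of the *wht* family, 5 of 9 sodium symporter genes (*snf*) and 4 of 6 sideroflexin genes were higher, and none was past the threshold in the other direction, with *snf-6* nearest to it at -0.25. The neprilysin peptidase genes, part of the protease list, had 12 of 18 higher and 0 lower, with a median of 0.40. Over *npr-1*, the *nep* median was 0.64 in *nfki-1*, 0.17 in *ilc-17.1* and 0.28 in *malt-1* mutants. The *irld* genes, which encode proteins with an insulin receptor L domain, had 8 of 9 higher.

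Other families had more members lower than higher in *nfki-1* mutants. F-box genes of the *fbxa* family had 30 of 74 lower and 10 higher, infection response genes (*irg*) 4 of 5 lower, and heme-responsive genes (*hrg*) 3 of 5 lower. *irg-4* was at 22.2 FPKM in *nfki-1* mutants, against 29.4 FPKM in *ilc-17.1* mutants. Of the 12 protein-coding genes of the mitochondrial chromosome, 4 were higher and 1 lower, the higher ones including *ND6* at 66.2 FPKM in *nfki-1* mutants, against 43.7 FPKM in *ilc-17.1* mutants and 167 FPKM in *npr-1* animals. The *T16G1* tandem genes, which are a fixed list, had 2 higher and 2 lower of 6 with a ratio. The noncoding *T16G1.15* and *T16G1.16* were listed at 0 in 1 mutant each. *T16G1.7*, at 73.6 FPKM in *nfki-1* mutants, against 88.9 FPKM in *ilc-17.1* mutants, was at 8.19 FPKM in *npr-1* animals.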
